A study of Mus musculus with 17 samples.

Results

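The proliferation genes described here are 45 mouse genes whose products copy DNA or carry a cell through mitosis. They were chosen by name, as the rows of the deposited normalised-count table whose gene name is on a list of S-phase and mitosis genes, and all 45 were found among its 48440 rows. The table holds 17 poly(A) RNA-seq libraries of whole liver in 3 groups. The first group is young wild-type B6 mice aged 2 months (n = 6: replicates 1 and 2 male and 3 and 4 female in batch A, 5 and 6 male in batch B). The second is old wild-type B6 mice aged 2 years (n = 5: replicates 1 and 2 female and 3 male in batch A, 4 and 5 male in batch B). The last is mice transgenic for miR-29, aged 2 months (n = 6: replicates 1 and 2 male and 3 female in batch A, 4, 5 and 6 male in batch B). Batch A libraries were made with an Illumina TruSeq kit and sequenced at UNC, batch B libraries with a NEBNext directional kit at Cornell. The labels do not give the transgene's promoter, the miR-29 family member it carries or the strain background of the transgenic mice. The series text counts mice in the same numbers as libraries, but no label identifies an animal; if libraries shared one, the p-values would measure only the spread between these samples. The comparisons are of age (old against young wild type) and of the transgene (transgenic against young wild type), the study's title tying miR-29 to ageing. Both use the same young wild-type libraries.

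Replication origins are licensed in G1, when Cdc6 and Cdt1 load the ring-shaped Mcm2 to Mcm7 helicase onto DNA, and fired in S phase, when the Gins complex joins the helicase and Pcna, the sliding clamp, holds the polymerases. In G2 and mitosis cyclin B with Cdk1, the kinases Plk1 and Aurora A and B, the spindle checkpoint and the anaphase-promoting complex take over. Most hepatocytes of an adult liver are quiescent, and these genes are known there as low in rest and strongly induced in regeneration. Their promoters follow the same division: E2F sites serve genes of the G1/S transition, while cell cycle homology regions (CHR), together with CCAAT boxes bound by NF-Y, serve genes of G2 and mitosis.

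The promoters of the members carried that division in their sequence. RefSeq promoters of GRCm38.p6 (250 bases before to 50 after a gene's start) were found for 37 of the 45 members, using the first one listed where a gene had several. A CHR (TTTGAA or TTCGAA, either strand) was present in 18 of 23 promoters of mitosis members (78.3%) and in 2 of 14 of replication and G1/S members (14.3%), against 19.4% of the promoters of 27025 genes. An E2F motif (TTTCCCGC, TTTGGCGC or TTCCCGCC, either strand; the first and the last can overlap) was present in 7 of 14 replication and G1/S promoters (50%), namely those of Mcm3, Mcm5, Mcm6, Mcm7, Cdt1, Cdc6 and Rrm1, and in 0 of 23 mitosis promoters, against 3.31% of all genes. CCAAT stood in 20 of 23 (87%) and 8 of 14 (57.1%), against 37.9%. A match is a string of letters and not a measured binding site. The 6 promoters below show 4 mitosis genes and 2 replication genes, each from 130 bases before to 20 after the start, 5′ to 3′, with CHR, CCAAT and E2F letters of either strand in capitals. They lie on the minus strand at chr7:135716360-135716509 (Mki67), chr11:99024170-99024319 (Top2a), chr10:69352893-69353042 (Cdk1), chr13:100786467-100786616 (Ccnb1), chr6:88898761-88898910 (Mcm2) and chr1:128359686-128359835 (Mcm6).
Mki67: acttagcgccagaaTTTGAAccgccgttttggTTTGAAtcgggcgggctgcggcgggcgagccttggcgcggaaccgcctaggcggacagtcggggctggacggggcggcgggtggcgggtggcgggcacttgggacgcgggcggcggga
Top2a: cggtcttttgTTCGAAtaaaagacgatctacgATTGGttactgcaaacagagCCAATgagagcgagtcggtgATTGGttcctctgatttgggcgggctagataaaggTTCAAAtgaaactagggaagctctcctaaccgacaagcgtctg
Cdk1: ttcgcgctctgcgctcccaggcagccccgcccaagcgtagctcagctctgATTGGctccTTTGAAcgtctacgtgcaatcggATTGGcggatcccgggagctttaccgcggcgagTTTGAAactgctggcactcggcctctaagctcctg
Ccnb1: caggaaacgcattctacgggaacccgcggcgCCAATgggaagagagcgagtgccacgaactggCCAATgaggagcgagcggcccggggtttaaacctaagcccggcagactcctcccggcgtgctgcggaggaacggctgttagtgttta
Mcm2: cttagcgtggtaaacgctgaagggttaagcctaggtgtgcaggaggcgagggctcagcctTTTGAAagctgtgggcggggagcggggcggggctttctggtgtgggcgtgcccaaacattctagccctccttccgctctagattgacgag
Mcm6: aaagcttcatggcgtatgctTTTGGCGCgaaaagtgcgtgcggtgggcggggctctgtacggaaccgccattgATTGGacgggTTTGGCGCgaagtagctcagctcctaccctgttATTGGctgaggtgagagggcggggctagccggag
Mki67, the proliferation antigen Ki-67, has a pair of CHR letters in this stretch and its CCAAT boxes just upstream of it. Top2a, the topoisomerase that untangles sister chromatids, has a run of CCAAT boxes between its CHR letters, and in Cdk1 the CCAAT boxes and CHR letters alternate. Ccnb1 (cyclin B1) holds CCAAT boxes and no CHR by these letters. Mcm6 shows the E2F letters, with CCAAT boxes and no CHR, while Mcm2 is a replication gene with a CHR and no E2F match.

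The transgene's own product was not measured, since poly(A) libraries do not report a mature miRNA. The mature 3p strands of the family share bases 2 to 8, the seed, shown in capitals from the RefSeq table of GRCm38.p6.
mmu-miR-29a-3p: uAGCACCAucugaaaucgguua
mmu-miR-29b-3p: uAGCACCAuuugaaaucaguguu
mmu-miR-29c-3p: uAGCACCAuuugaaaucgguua
The DNA letters complementary to that seed, TGGTGCT, occurred in the longest annotated 3′ UTR (GENCODE M21) of 5 of the 45 members (11.1%), against 15.4% of 12927 genes tested that have one. The members' UTRs were shorter, with a median of 914 bases against 1151. The 5 were Ccna2, Aurkb, Tpx2, Cenpf and, with 2 matches, Mad2l1. None of them passed the test for the transgene, with fitted log2 differences of -0.23 for Ccna2, 0.20 for Aurkb, -0.47 for Tpx2, -0.02 for Cenpf and -0.05 for Mad2l1.

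The values are the authors' DESeq2 normalised counts, which sum to 28077001 to 44543936 per library, and the depth in reads is unknown. Of the 45 members 44 had a mean of at least 10 over the 17 libraries and were tested; Bub1 (mean 8.41) was not. Cdc6 and Plk1 have young wild-type means under 10 and passed through the other groups. Cenpf and Hmmr have old wild-type means under 10 (4.17 and 9.27) and passed through the other groups as well. Because the counts are not scaled by gene length, a gene is compared between libraries and not with other genes. The 9 hepatocyte markers checked, among them Alb and Apob, were above 0 in every library. In whole liver, a change in the number of cycling cells cannot be told apart from a change in RNA per cell. Of the members, 17 overlap an annotated gene on the other strand, Mki67, Plk1 and Nusap1 among them, and the counting is not stated to use strand.

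The main pattern was not a shift between groups but a wide spread inside the transgenic group. No member passed the test for age or for the transgene (limma on log2(value + 1) with batch and sex as terms, adjusted p under 0.05 over 14588 genes). By age, 0 of 44 members were called, beside 0.144% of all genes, with an unadjusted p under 0.05 for 2; their median fitted difference was 0.05 on the log2 scale against -0.00 for all genes. By transgene, 0 of 44 were called, beside 6.71% of all genes, with an unadjusted p under 0.05 for 4, all higher; the median was 0.32 against 0.01, with 31 above and 13 below 0. Without transgenic replicate 3 the transgene count was 3, and without young wild-type replicate 3 it was 1, beside 738 and 759 of 14588 genes. The authors' deposited table, made with DESeq2, calls 1 member for age, beside 1.77% of its genes, and 5 for the transgene, beside 14.1%.

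Within the transgenic group the standard deviation of log2(value + 1) was the largest of the 3 groups for 39 of 45 members. It was taken over both batches and sexes of a group, so differences between batches add to it. Its median over the 44 tested members was 1.33 in transgenic, 0.70 in young wild-type and 0.73 in old wild-type libraries. Over all genes tested the corresponding medians were 0.66, 0.65 and 0.54. The members' median exceeded that of all genes in each group, and by most in the transgenic one. Pcna had the smallest standard deviation of them there, with transgenic values of 853 to 1517.

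**Figure D1:**
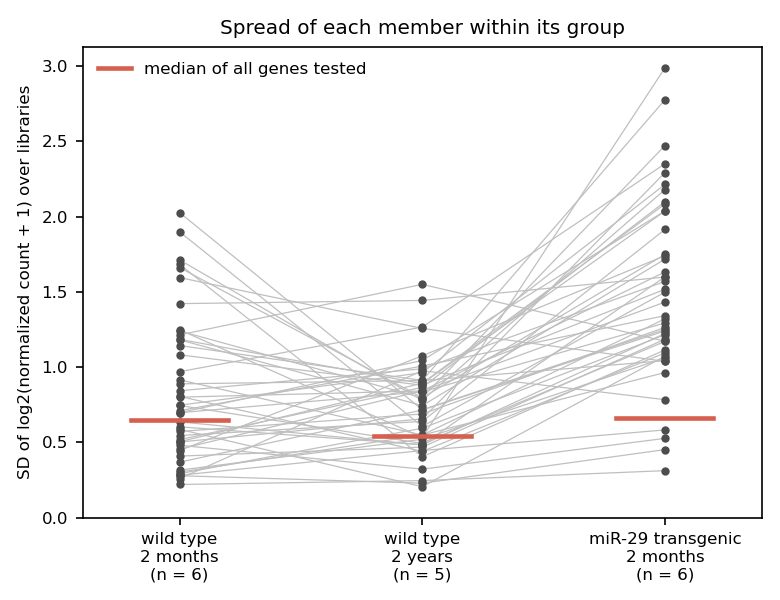
Standard deviation of log2(normalised count + 1) over the libraries of each group (y axis) for the 45 members (points, joined by gene) in young wild-type (n = 6), old wild-type (n = 5) and transgenic (n = 6) liver; the red bars are the medians of all genes tested. In transgenic liver the median of the 44 tested members is 1.33 against 0.66 for all genes.

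A wide gap lay between a pair of libraries that share every label. Transgenic replicates 1 and 2 are of the same genotype, age, sex and batch. All 45 members were higher in replicate 1 than in replicate 2, with a median difference of 2.74 on the log2(value + 1) scale, and 42 of them differed by more than 2-fold, against 21.6% of all genes tested. The pair of young wild-type males of batch A had a median absolute difference of 0.44 over members, the pair of young females 0.35, and the young males of batch B 0.90, with 18 members over 2-fold. Beyond the transgenic group, the members differed most between the old males of batch B. There 41 of 45 were higher in replicate 5 than in replicate 4, with a median difference of 1.09. The transgenic males of batch B differed less than either wild-type pair of that batch. Their median absolute differences were 0.86 (replicates 4 and 5), 0.63 (4 and 6) and 0.72 (5 and 6). So the wide gap between transgenic libraries of like labels was that of replicates 1 and 2 in batch A.

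Set against the 4 young wild-type libraries of batch A, transgenic replicate 1 was above all of them in 44 of 45 members, where 26% of all genes were. The exception was Cenpe, a kinesin that holds chromosomes at the kinetochore, at 19.6. The median ratio to the young wild-type mean was 3.63 in that library, and reached 10.6 for Mcm6. Replicates 2 and 3 went the other way, below all 4 wild types in 29 members each, where 27.4% and 33.4% of all genes were, with median ratios of 0.378 and 0.416. Counting over all 17 libraries, replicate 1 held the highest value of 28 members and transgenic replicate 5 of 11, while the lowest value lay in transgenic replicate 2 for 15 members, in transgenic replicate 3 for 10 and in a wild-type library for the other 20, most often young wild-type replicate 5 (8 members).

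**Figure D2:**
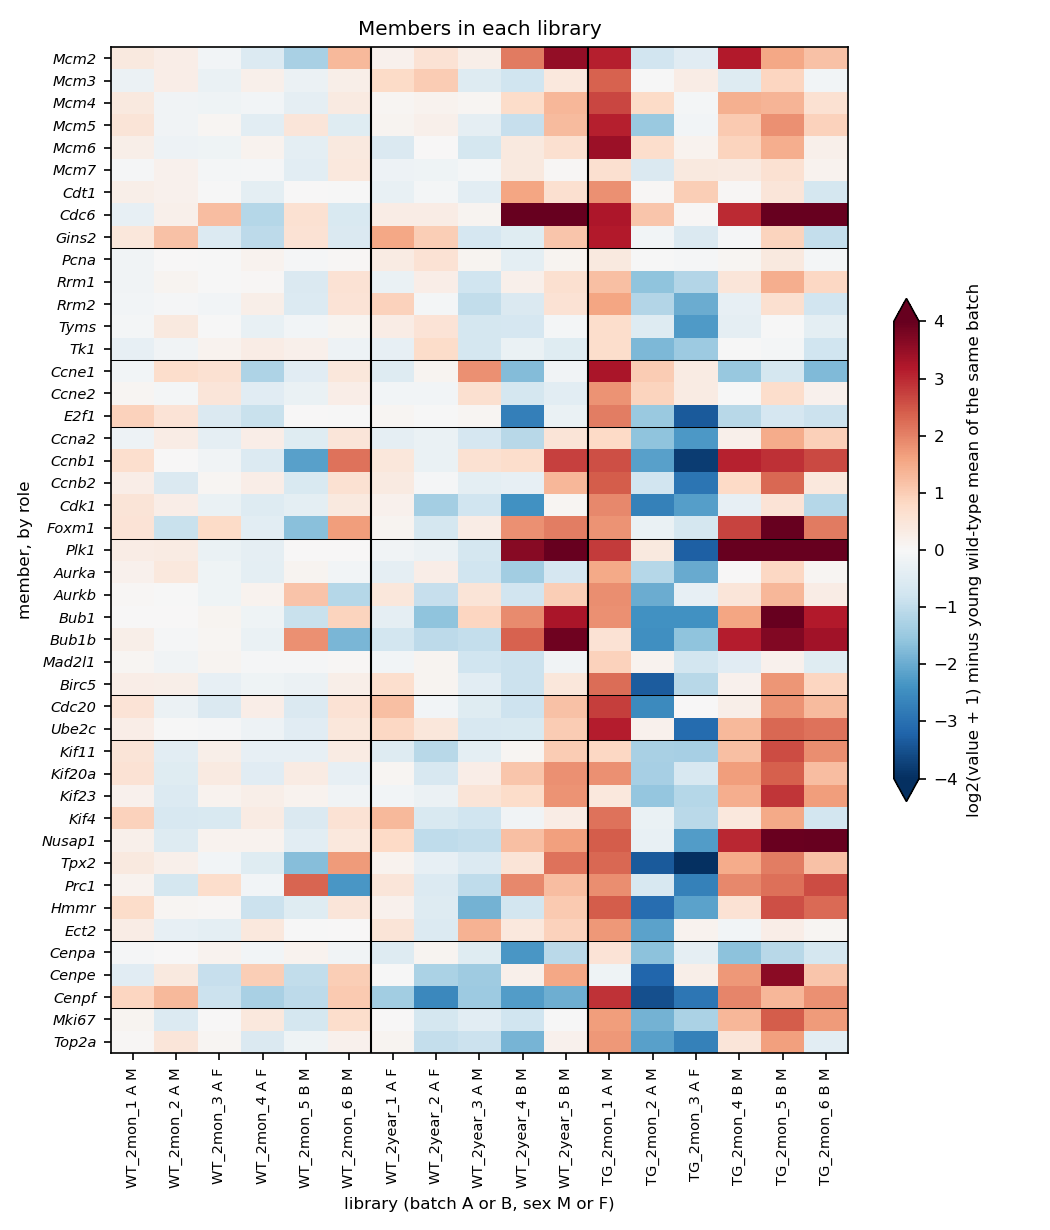
Each member (rows, grouped by role) in each library (columns, with batch and sex), coloured by log2(value + 1) minus the mean of the young wild-type libraries of the same batch; colours saturate at 4 in either direction. Transgenic replicate 1 is red in nearly every row and replicates 2 and 3 are mostly blue in the mitosis rows, while transgenic replicate 5 is above both young wild types of its batch in 39 of 45 members.

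In batch B the transgenic libraries lay mostly above the young wild types. Replicate 5 exceeded both wild-type libraries in 39 members, and replicates 4 and 6 in 23 each, where 36.4%, 41.2% and 37.2% of all genes did so. All 3 transgenic libraries stood above both wild types for 17 of 45 members, beside 19.8% of all genes, and below both for 3 (Ccne1, E2f1 and Cenpa), beside 22.4%. The shares cover tested genes only. The 17 include Bub1, which was not tested, and Cdc6 and Plk1, which passed the filter only through the groups where they are high. Among the 17, Cdc6, Ccnb1, Foxm1, Plk1, Bub1 and Bub1b have a wild-type library of batch B at 0. The count of 17 is therefore not read against its share. In batch A the groups were apart for 0 members in either direction, beside 8.52% of all genes with the transgenic group above and 9.01% below. Over both batches together 0 members separated the groups, beside 1.11% above and 1.84% below.

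Mean levels of 2 classes set this out. Over the 28 mitosis members the mean log2(value + 1) ran from 3.76 to 5.02 in young and from 4.03 to 5.19 in old wild-type libraries. In transgenic libraries it was 6.50, 3.05 and 2.98 in batch A and 5.23, 6.25 and 5.44 in batch B, so that every transgenic library lay outside the range of all 11 wild types. Over the 17 replication and G1/S members the transgenic means of 8.61, 6.24, 6.01, 7.31, 7.80 and 7.03 overlapped the wild-type range of 6.21 to 7.74 in 3 libraries.

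**Figure D3:**
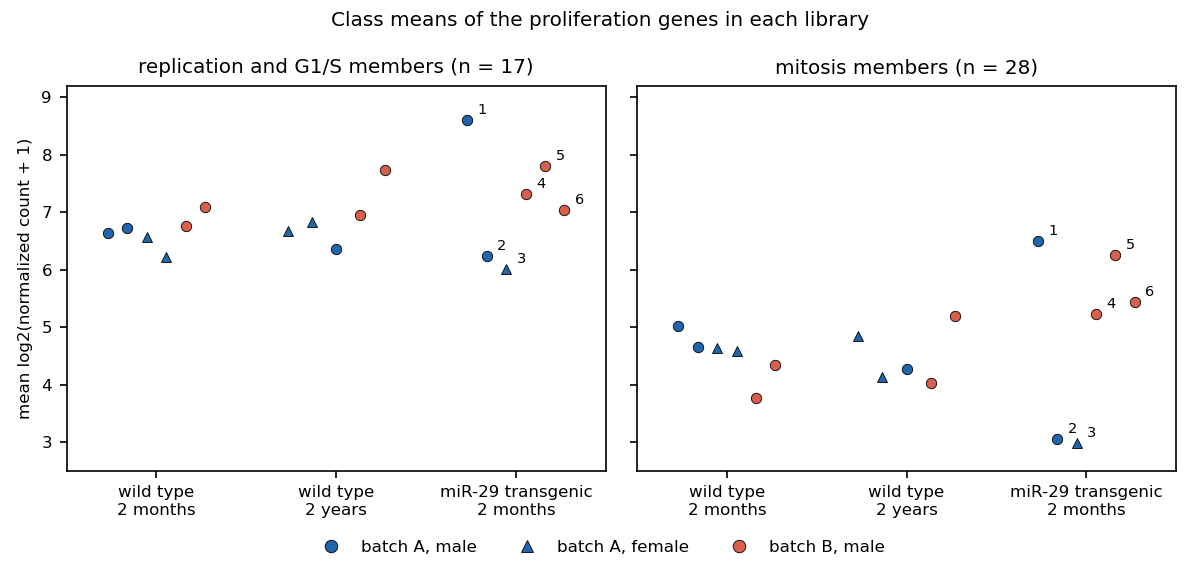
Mean log2(normalised count + 1) of the 17 replication and G1/S members (left) and the 28 mitosis members (right) in each library, by group; colour gives the batch, shape the sex, and the numbers are transgenic replicates. The mitosis means of the transgenic libraries lie at 2.98 to 3.05 or at 5.23 to 6.50, on either side of the wild types at 3.76 to 5.19.

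All 9 members of the origin licensing class had a fitted transgene difference above 0, with a median of 0.81, and none was called. The class mean of log2(value + 1) was 8.43 in transgenic replicate 1 and 5.77 and 5.88 in replicates 2 and 3. Without replicate 1 the batch A differences of Mcm2, Mcm5, Mcm7 and Gins2 were below 0. In batch B 2 of the 9 were below 0. Of the 4 members with an unadjusted p under 0.05, 3 were in this class (Cdc6, Mcm4 and Mcm6, named after their values were seen). Cdc6 passed the filter only through the groups where it is high. Mcm7, the helicase subunit with the highest mean count, ran from 269 to 480 in young wild type, with a median of 354. In old wild type it was 315, 325 and 345 in batch A and 469 and 367 in batch B.
In transgenic liver Mcm7 had a lowest value of 243, a median of 472 and a highest of 570. These ranges overlap, and neither the age difference (-0.02 ± 0.23, SE) nor the transgene difference (0.23 ± 0.22) passed the test.

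Mcm6, another subunit of that helicase, was between 103 and 174 in young wild type, with a median of 133. In transgenic batch A it read 1426, 219 and 146, and in batch B 249, 365 and 154. One library therefore stood far above the rest, and the fitted transgene difference was 1.08 ± 0.44 (limma adjusted p = 0.164). Mcm4 behaved alike, at 604 in transgenic replicate 1 against 72.9 to 159 in the other transgenic libraries and 37.1 to 125 in young wild type, with a difference of 1.01 ± 0.35 (limma adjusted p = 0.0936). The authors' deposited table gives log2 changes of 1.34 for Mcm6 (adjusted p = 0.0296) and 1.19 for Mcm4 (adjusted p = 0.0192) and counts both as called.

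Cdc6, the loader of the helicase, was nearly silent in young wild type, at 2.87, 4.62, 10.3 and 1.21 in batch A and 1.32 and 0 in batch B. In transgenic liver it was 44.8, 9.52 and 3.94 in batch A and 10.9, 25.9 and 26.4 in batch B. In old wild type it was 4.89, 4.89 and 4.21 in batch A, inside the young range, and 30.9 and 47.5 in batch B, above it. The fitted difference was 2.19 ± 0.74 for the transgene (limma adjusted p = 0.0905) and 1.93 ± 0.78 for age (adjusted p = 0.535), and at such low counts its size depends on the added 1. The authors' deposited table has 2.87 for the transgene (adjusted p = 0.00581).

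The enzymes of DNA precursors did not share that direction. Of 5 members in the class of the clamp and nucleotide supply, 2 were above and 3 below 0 for the transgene, and none passed. Pcna was the member with the highest mean count of all, from 804 to 1202 in young wild type with a median of 934. Its old wild-type values were 1124, 1326 and 960 in batch A and 892 and 1260 in batch B, and its transgenic values ran from 853 over a median of 1136 to 1517. All 3 ranges overlap (age 0.15 ± 0.17, transgene 0.15 ± 0.17). Tk1 and Tyms, which supply thymidylate, and Rrm2, the small subunit of ribonucleotide reductase, had fitted transgene differences of -0.57, -0.51 and -0.38.

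At the G1/S step E2f1, the transcription factor that drives the S-phase genes, was 112 and 87.1 in young males and 39.4 and 31.2 in young females of batch A, and 222 and 219 in the males of batch B. In transgenic liver it was 245, 20.4 and 4.85 in batch A and 101, 137 and 122 in batch B, where all 3 lay below both wild types. Old wild type ran 62.9, 57.7 and 61.8 in batch A and 32.4 and 183 in batch B. The transgene difference was -0.96 ± 0.62 and did not pass the test. Ccne1 and Ccne2, the E cyclins that start S phase, had fitted differences of 0.23 and 0.68.

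Of the mitotic entry genes Cdk1 had the highest mean count. It ran from 38.7 to 80.2 in young wild type with a median of 56.5. In transgenic liver it was 213, 7.70 and 11.3 in batch A and 45.6, 84.8 and 25.4 in batch B, which spans the whole wild-type range on both sides. Old wild type had 63.0, 21.1 and 31.5 in batch A and 9.82 and 60.5 in batch B. The fitted differences were -0.81 ± 0.70 for age and -0.72 ± 0.67 for the transgene. Ccnb1 was listed at 0 in 1 young wild type of batch B and in transgenic replicate 3, and at 81.8 in transgenic replicate 1.

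Mad2l1 is the spindle checkpoint protein that holds back the anaphase-promoting complex, and had the smallest standard deviation of its class in each group. It ran from 86.7 to 141 in young wild type (median 101), stood at 87.2, 102 and 54.1 in batch A and 75.1 and 123 in batch B of old wild type, and ran from 56.6 to 182 in transgenic liver (median 102). Plk1, the kinase that drives spindle assembly, was listed at 0 in both young wild types of batch B, while the transgenic libraries of that batch had 21.9, 38.1 and 36.3. In batch A it was 6.46 to 11.1 in young wild type and 66.2, 11.6 and 0 in transgenic liver, so the batches do not give the same picture. Bub1, the checkpoint kinase below the filter, ran from 0 to 4.71 in young wild type, 0.761 to 17.01 in old wild type and 0 to 49.6 in transgenic liver.

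Ube2c, the ubiquitin-conjugating enzyme of the anaphase-promoting complex, was 11.5 to 33.5 in young wild type with a median of 25.3. In transgenic liver it was 249, 31.1 and 2.39 in batch A and 40.9, 82.5 and 76.0 in batch B. In old wild type it was 50.2, 38.6 and 17.3 in batch A and 10.3 and 33.6 in batch B. Only the batch B transgenic values stood clear of their own wild types (transgene 0.80 ± 0.74 over both batches).

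Nusap1, a protein that bundles spindle microtubules, was 29.5, 17.5, 28.2 and 27.7 in the young wild types of batch A and 3.03 and 6.12 in those of batch B. The transgenic libraries had 140, 20.2 and 4.53 in batch A and 42.4, 82.8 and 103 in batch B. Old wild type had 44.9, 11.98 and 12.4 in batch A and 11.3 and 15.8 in batch B. The difference of 1.50 ± 0.75 for the transgene had a limma adjusted p of 0.269, and the authors' deposited table has 2.06 with an adjusted p of 0.0215.

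Cenpa, the histone variant that marks the centromere, was 108 to 128 in the young wild types of batch A and 439 and 357 in those of batch B. Old wild type had 81.0, 125 and 82.3 in batch A and 78.1 and 189 in batch B. Transgenic liver had 172, 36.7 and 91.4 in batch A and 126, 185 and 243 in batch B. Both batches gave lower old and transgenic medians with overlap in batch A, and the fitted differences of -0.84 ± 0.37 for age and -0.68 ± 0.36 for the transgene did not pass the test (limma adjusted p = 0.552 and 0.294). Cenpf, a kinetochore protein, was 26.6, 36.5, 7.46 and 5.19 in batch A and 11.1 and 51.5 in batch B of young wild type, and 1.58 to 5.52 in all 5 old libraries. Its age difference of -1.84 ± 0.95 had a limma adjusted p of 0.591, and it is the single member that the authors' deposited table calls for age, at -2.10 with an adjusted p of 0.017. Cenpf passed the filter used here only through the groups where it is high, so its age values are a description.

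Mki67 was 90.7 and 57.4 in young males and 83.8 and 112 in young females of batch A, and 35.4 and 96.2 in batch B. Old wild type had 84.5, 50.8 and 62.2 in batch A and 33.0 and 57.3 in batch B, within the young range but for the lowest. Transgenic liver had 271, 22.0 and 33.9 in batch A and 147, 321 and 194 in batch B.
So 4 transgenic libraries lay above every wild type, and the other 2 lay near or under the lowest of them. The fitted differences were -0.46 ± 0.61 for age and 0.53 ± 0.58 for the transgene. Top2a was 178, 11.1 and 7.31 in batch A and 125, 277 and 65.7 in batch B of transgenic liver. Its young wild-type values ran from 35.2 to 101 and its old ones from 24.0 to 99.7, so 3 transgenic libraries lay above every wild type, 1 lay among them and 2 lay below.

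**Figure D4:**
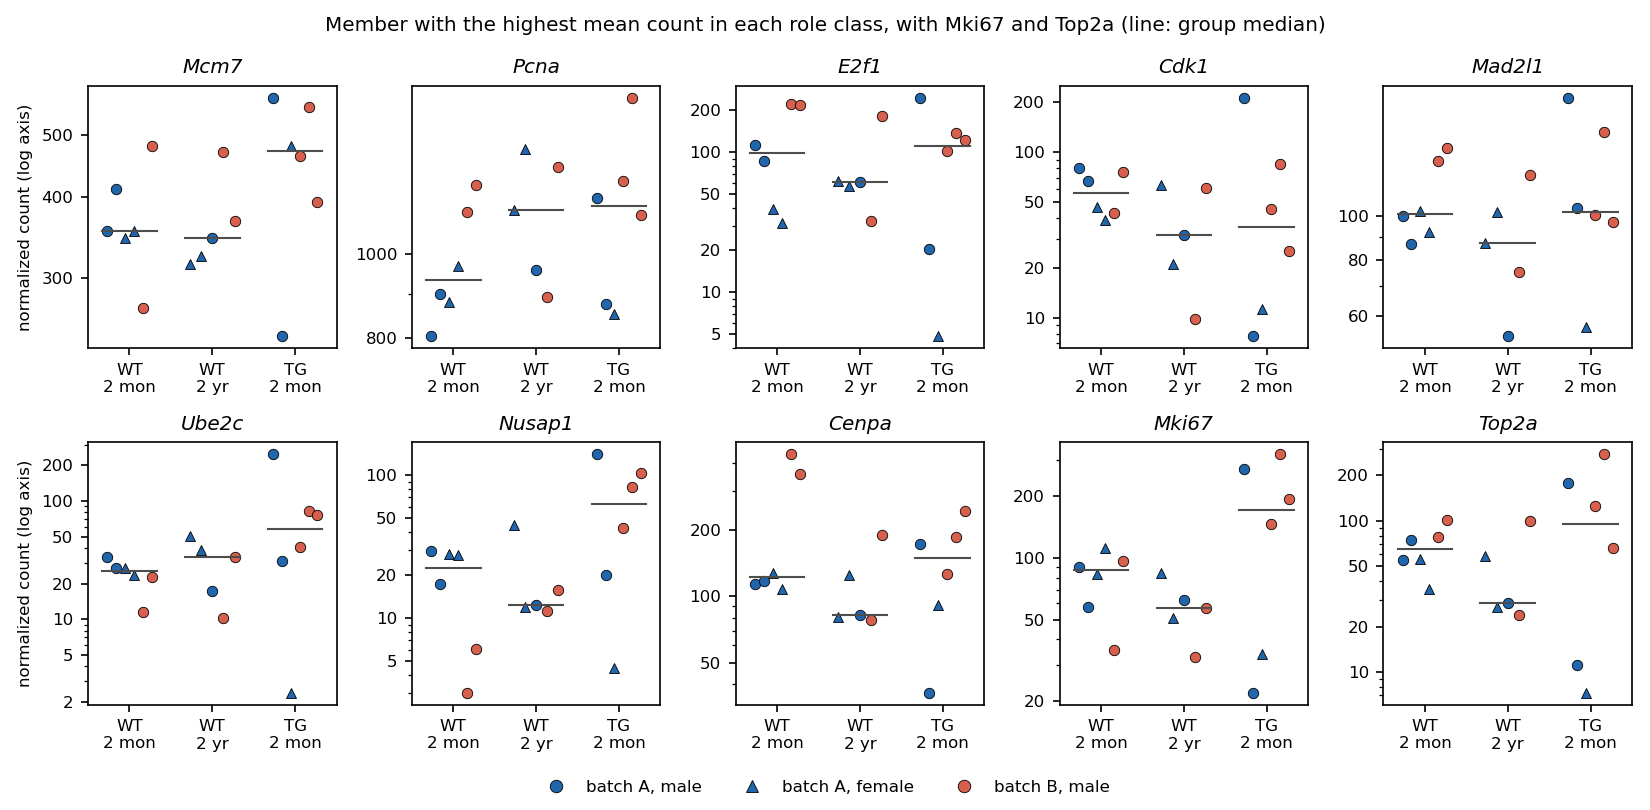
Normalised counts (log axis, per gene) of the member with the highest mean count in each role class, with Mki67 and Top2a, in each library; colour gives the batch, shape the sex and the line the group median. For Mki67, 4 transgenic libraries lie at 147 to 321, above every wild type, and 2 lie at 22.0 and 33.9.

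The transgene difference was then fitted in each batch with a term for every group and batch. In batch A the 44 members had a median of -0.36, with 16 above and 28 below 0, and 0 were called, beside 5.54% of all genes; 4 had an unadjusted p under 0.05, all higher. The 17 replication and G1/S members had a median of 0.52 there and the 27 tested mitosis members -0.57, a difference between classes that was not tested; without transgenic replicate 1 these medians were -0.10 and -1.47. In batch B the median was 0.93, with 34 above and 10 below 0. By class it was 0.13 for replication and G1/S and 1.71 for mitosis. Without the 6 tested members that are at 0 in a wild-type library of batch B, the batch B median over the other 38 was 0.78.

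In batch B 4 members were called and all were higher in transgenic liver (Cdc6, Plk1, Bub1b and Nusap1), beside 6.51% of all genes. Bub1b, a checkpoint pseudokinase, was 11.6 and 0 in its 2 wild types and 30.5, 45.7 and 35.9 in transgenic liver. Of the 4, 3 have a wild-type library of batch B at 0, so no fold is given. Cdc6 and Plk1 passed the filter on low values only through the groups where they are high, so those 2 calls are descriptions and the count is not read against that share. Nusap1 has none, and its fitted difference was 3.75 ± 0.97 (limma adjusted p = 0.0329). Its batch B wild types are low as well, at 3.03 and 6.12, so the size of that difference depends on the added 1. These calls rest on 2 wild-type libraries. Leaving out 1 assumes that the other varies like the rest, so those fits are not read. Without transgenic replicate 5 or 6 only Plk1 of the members is called, beside 386 and 852 of 14588 genes. Without transgenic replicate 1, of the other batch, 7 members are called, beside 1130 genes.

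In batch A the result turned on transgenic replicate 1, which was picked out on the members' own values, so the calls without it are descriptions. Leaving it out, 11 of 44 members were called and all had fallen, beside 9.94% of all genes in that fit. They were Mki67 (-1.58 ± 0.46, limma adjusted p = 0.0435), Top2a (-2.44 ± 0.62, adjusted p = 0.024), Cdk1, Ccna2, Aurka, Birc5, Tpx2, Cenpf, E2f1, Rrm1 and Tk1. The remaining transgenic libraries of that batch are then 1 male and 1 female. The same omission took the median over both batches from 0.32 to -0.07.

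The difference between the batches was itself tested. The transgene difference in batch B minus that in batch A had a median of 1.22 over the 44 members and 2.03 over the mitosis members, of which 25 of 27 were above 0, against 0.01 over all genes. With 10 unadjusted p under 0.05, 0 of 44 members passed, beside 0.5% of all genes. The smallest limma adjusted p was 0.087, for Plk1. Without transgenic replicate 1, picked out on the members' own values, the count was 10, beside 238 of 14588 genes. The age difference changed with batch for 0 of 44 members, beside 0.0206% of all genes, with 3 unadjusted (Cdc6, Plk1 and Bub1b). Within batch A 0 members were called for age, beside 0.0274% of all genes, and none had an unadjusted p under 0.05. Within batch B the 2 members called were Cdc6 and Plk1, higher in old liver, beside 8.47% of all genes. Both entered the test only through the groups where they are high, so nothing is read from that count. Leaving out a wild-type library of batch B leaves 1 library of its group there, so those fits are not read. Without transgenic replicate 1, 5 members were called for age in batch B, beside 1405 of 14588 genes. Only Cdc6 was called without young wild-type replicate 1, 3 or 4, old wild-type replicate 1 or transgenic replicate 5. Those fits called 703, 529, 553, 623 and 758 genes, in that order.

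**Figure D5:**
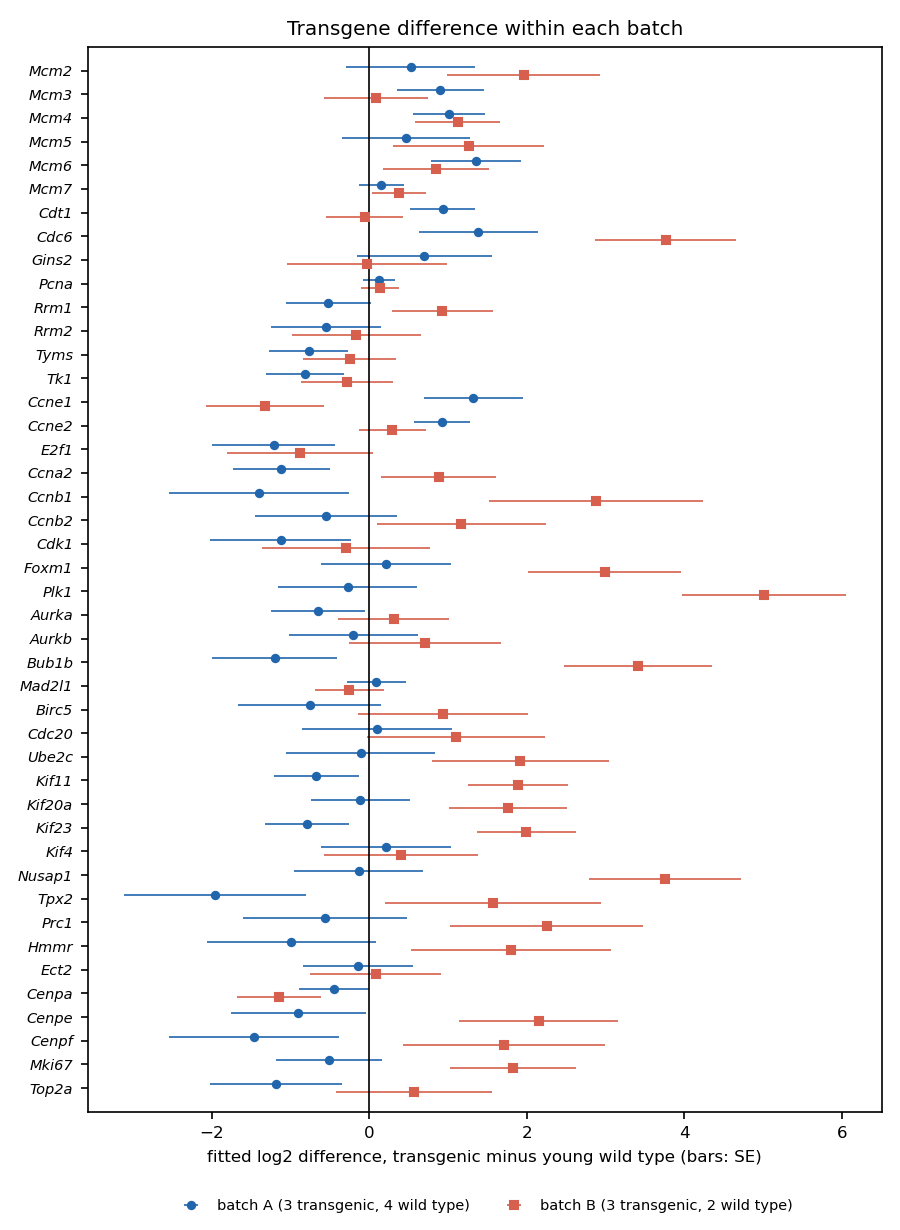
Fitted log2 difference between transgenic and young wild-type liver (x axis; bars are standard errors) for the 44 tested members (y axis) in batch A (blue, 3 against 4 libraries) and batch B (red, 3 against 2). Most mitosis members have batch B values to the right of batch A, the largest for Plk1, whose wild types of batch B are at 0 so that its value depends on the added 1.

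Between the batches themselves, 4 of 44 members differed across groups, beside 42.7% of all genes. Tk1 (1.73 ± 0.37), Mcm3 (1.22 ± 0.42) and Cenpa (1.19 ± 0.36) were higher in batch B, and Mcm4 (-1.02 ± 0.35) was lower. Without transgenic replicate 1 the count was 7, and without transgenic replicate 2 or young wild-type replicate 1 it was 2. These fits called 5905, 5342 and 4878 of 14588 genes, in that order. A batch here stands for its kit and its sequencing centre together, and batch B holds males alone.

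Other genes of the pathway were read from lists. Of 48 further replication genes 44 were tested, and for the transgene 1 rose (Orc2, an origin recognition subunit, 0.89 ± 0.26, limma adjusted p = 0.0473) and 2 fell, with a list median of 0.08. Over all genes 6.71% were called for the transgene, a share near that of this list. Mcm10, which links the helicase to the polymerase, fell the furthest, by 4.37 on the log2 scale (SE 0.48, limma adjusted p = 7.76e-05). It was 2374 and 2088 in young males and 706 and 639 in young females of batch A and 9600 and 9698 in batch B, 609 to 4840 in old wild type, and 112, 72.3, 114, 223, 172 and 307 in the 6 transgenic libraries, all under every wild type. Rfc5, a subunit of the clamp loader, fell by 1.20 (SE 0.28, adjusted p = 0.016).

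Of 60 further mitosis genes 41 were tested, and for the transgene 0 rose and 1 fell, the cyclin F gene Ccnf (-1.60 ± 0.31, limma adjusted p = 0.0045), with a list median of 0.04. Within batch A the median transgene difference of this list was -0.36, with 10 above and 31 below 0. Within batch B it was 0.63, with 28 above and 13 below 0. So the difference between batches described for the mitosis members was seen in this list too. Of 29 genes of the G1, E2F, RB and DREAM machinery 28 were tested and only E2f8, a repressive E2F, was called (-2.17 ± 0.62, limma adjusted p = 0.0446). The counts of both lists stand beside 6.71% of all genes called for the transgene. Of 7 inhibitors of cyclin-dependent kinases, 6 were tested. Cdkn1c rose with the transgene (1.36 ± 0.29, limma adjusted p = 0.00917). Cdkn2a, which encodes p16 and is known as a marker of senescent cells, rose with age (3.85 ± 0.60, adjusted p = 0.0139), from 0 to 5.8 in young to 17.1 to 55.5 in old libraries. For age none of the further replication, mitosis or G1 genes was called. Cdkn1a, which encodes p21 and was chosen after its values were seen, was 59.2 and 125 in the young wild types of batch B and 770, 2421 and 2997 in the transgenic libraries of that batch, a rise of 4.35 ± 0.69 (limma adjusted p = 0.00317). In batch A its young wild-type values of 2309 to 4221 overlapped the transgenic ones of 2508 to 3283. Over both batches the difference of 1.72 ± 0.68 did not pass (limma adjusted p = 0.15).

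Neutrophil markers, whose progenitors divide, were higher in the transgenic group. Of 11 genes of neutrophil progenitors all were tested. For the transgene, beside 6.71% of all genes called, 5 of them rose (Chil3, Ltf, Ngp, Mpo and Camp) and Cebpe fell. Their summed normalised count was 75.8 to 819 in young wild type, where Ctsg was at 0 throughout, 98.7 to 2948 in old wild type, and 1512, 795, 1950, 5864, 24246 and 8940 in transgenic replicates 1 to 6. All 7 tested of 8 mature neutrophil markers rose, from sums of 58.0 to 440 in young wild type (Ly6g at 0 throughout) to 518 to 36176. The erythroblast sum was 461 to 8269 in young wild type, where Epb42 and Rhag were at 0, and 471 to 7958 in transgenic liver, with medians of 3171 and 2063, although 3 of its 5 tested genes rose. The Kupffer cell sum was 9341 to 16199 in young wild type and 6048 to 56204 in transgenic liver. Transgenic replicate 1, the library with most member maxima, had a neutrophil progenitor sum of 1512. That sum was 795 and 1950 in transgenic replicates 2 and 3, and 75.8 to 212 in the young wild types of batch A. Transgenic replicate 1 also had the highest hepatocyte sum of all libraries. For the transgene 0 of 5 tested stem and progenitor markers, 0 of 9 T and NK cell markers and 0 of 7 stellate markers were called. Of 6 tested B and plasma cell markers Ighm rose, while the other 5 were fitted below 0 (list median -1.11). Of the Kupffer cell list Marco rose, of the endothelial list Stab2 rose, of the cholangiocyte list Spp1 fell and of the hepatocyte list Serpina1c fell, and no other gene of these lists was called. What part these cells have in the members' levels was not tested.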

How the data were processed

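The data are 17 poly(A) RNA-seq libraries of mouse liver. The build was mm10, and the tools were the aligner STAR 2.5.3a, the quantifier Salmon 0.6.0 and DESeq2, per the submitters' processing notes. The deposited signal values are DESeq2 normalised counts, in which whole reads could not be recovered. The authors also deposited DESeq2 comparison tables, corrected for batch and sex, with log2 fold changes, the Wald statistic as a score, and p-values.

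From the normalised counts, log2(value + 1) of 14588 genes with a mean of at least 10 was fitted with limma 3.58.1 (R 4.3.3, trend) on group, batch and sex over all 17 libraries. A second fit with a term for each group and batch gave the within-batch differences. Adjusted p-values are Benjamini-Hochberg over all genes, with a threshold of 0.05, and the fits were tested on simulated data. Members and lists were chosen with earlier results of these data known. Genes given in full are Mki67, Top2a and the member with the highest mean count in each role class, and from other lists up to 3 called genes; other named members were chosen after their values were seen. Alternatives were scaling, pseudocount, filter, array weights, covariates, a replicate block and leaving out each library.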

Additional observations from a re-analysis of the deposited data

Results flagged for a closer look

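Over the 45 members in 3 groups each, 135 sets of values in all, 1 library stood apart from the others of its group by Dixon's test in 19 (14.1%). Over all genes tested this share was 9.23%, and chance flags about 1 in 20 groups. Transgenic replicate 1 was the high library for 7 members. It had 604 for Mcm4, 1426 for Mcm6, 1256 for Rrm2, 172 for Ccne1, 249 for Ube2c, 79.6 for Prc1 and 99.6 for Ect2. Old wild-type replicate 5 was high for 6, with 301 for Mcm2, 162 for Mcm5, 157 for Gins2, 183 for E2f1, 51.3 for Bub1b and 62.9 for Tpx2. Transgenic replicate 5 was high for Bub1 (49.6) and Cenpe (102). The remaining libraries were young wild-type replicate 5 for Aurkb (39.7), young wild-type replicate 6 for Cdc20 (42.4), old wild-type replicate 1 for Nusap1 (44.9) and, as the lowest of its group, old wild-type replicate 2 for Cenpf (1.58).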

How the results depend on the processing

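No member was called for age under any setting run on the normalised counts, and the authors' deposited table calls 1. For the transgene the count was 3 in batch B only and 3 in males only, 5 in the deposited table, and 0 to 3 leaving out each library. Over all 14588 genes, 263 were called in batch B only and 737 in males only. Array weights are an estimate that stopped before converging in at least part of these fits. With them the counts were 3 for age by batch, 16 for transgene by batch and 8 for batch. They were 19 for transgene in batch A, 7 for transgene in batch B and 3 for age in batch A. Over all 14588 genes the same fits called 2682, 1117, 6962, 3765, 1881 and 2442, in that order. With quantile normalisation the member counts were 1 for transgene in batch B and 0 for age in batch B, beside 616 and 255 of 14588 genes. Leaving out each library gave 0 to 0 for age, for age by batch and for age in batch A, 0 to 10 for transgene by batch, 2 to 7 for batch, 0 to 11 for transgene in batch A, 1 to 7 for transgene in batch B and 0 to 5 for age in batch B. The median over members ran from -0.09 to 0.24 for age and from -0.07 to 0.74 for the transgene, and was -0.36 in batch A only and 0.93 in batch B only. The cause of these shifts was not tested. Over all 14588 genes, the fits without transgenic replicate 1 called 238 for transgene by batch and 5905 for batch. They called 1450 for transgene in batch A, 1130 for transgene in batch B and 1405 for age in batch B. The settings for batch and for differences within a batch were added after seeing the data. Of 16 same-numbered pairs of libraries, 7 correlated over 0.1. Differently numbered pairs were not compared, so this cannot tell whether replicate numbers pair the samples. With a replicate block the counts were 0 for age (median 0.06), 0 for the transgene (median 0.38) and 0 for batch. Over all 14588 genes the same fits called 11, 796 and 46, in that order. Replicate numbers largely follow batch, so this block takes up most of the batch difference and nothing is read from its batch count. Depth in reads is unknown, which limits the members with values near 0.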
